A study of Mus musculus with 15 samples.

Results

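The NRF2 antioxidant genes are a set of 10 mouse genes: Nfe2l2, which encodes the transcription factor NRF2, Keap1, which encodes its inhibitor, and the antioxidant genes Nqo1, Gclc, Gclm, Gsr, Txnrd1, Txn1, Srxn1 and Prdx1. Each gene was read from the probe set that names it alone and has the highest mean over the 15 arrays of the study. Of the 10 genes, 9 had such a probe set and all 9 passed the filter on low values, among 18193 genes that could be read in this way, of which 13703 passed. Prdx1, a peroxiredoxin that removes hydrogen peroxide, is named by 5 probe sets, each together with another gene, and no value is given for it. The macrophages of all 5 groups were grown from mouse bone marrow for 7 days with M-CSF, which macrophage precursors need in order to mature. M2 cells were polarized with the cytokines IL-4 and IL-13, and were studied with nutlin-3a (M2+nutlin-3a), with 10058F4 (M2+10058F4) and with neither agent (M2). Nutlin-3a activates p53 by occupying the p53 pocket of MDM2, and 10058F4 is a MYC inhibitor. M1 cells were polarized with E. coli lipopolysaccharide (LPS) and interferon-gamma, and M0 cells were left untreated. Each group had 3 samples, called biological replicates in the labels with no word on separate mice or cultures, so the p-values speak of the spread among these arrays, and that spread may be technical. No dose, time or vehicle of the agents, and no mouse strain, is given by the labels.

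NRF2 is a transcription factor that cells hold at a low protein level until they meet oxidants or electrophiles. KEAP1 binds NRF2 and brings it to a CUL3 ubiquitin ligase for degradation. Oxidants modify KEAP1, and NRF2 then accumulates, pairs with a small MAF protein and binds antioxidant response elements near genes for glutathione, thioredoxin and quinone metabolism. In macrophages, which make reactive oxygen and nitrogen species when they meet bacteria, this system limits oxidative damage. An array reads mRNA, so it measures neither NRF2 protein nor its activity.

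Values are log2 expression per probe set after RMA, the authors' normalization. One group that is 1 log2 unit above another has 2-fold its signal, errors of levels are SDs over 3 arrays, and errors of differences are standard errors (SE) of a limma fit to all 15 arrays. A difference was called at a Benjamini-Hochberg adjusted p under 0.05 over the 13703 genes. Arrays correlated within groups with r of 0.996 to 0.997 in 4 groups and of 0.989 to 0.994 in M1, where replicate 2 stood apart. Arg1, the arginase of M2 cells, was at 8.76 on M1 replicate 2, against 5.35 and 5.30 on the other M1 arrays. As a check of the labels, the inducible nitric oxide synthase gene Nos2 averaged 8.56 in M1 and 4.84 in M2, against 4.94 in M0. Arg1 averaged 10.37 in M2, against 3.56 in M0, and Cdkn1a, a p53 target, averaged 12.45 with nutlin-3a, against 10.75 in M2. Myc mRNA itself was at 7.47 both with 10058F4 and in M2. All 7 macrophage markers were above the filter's level in every group, and none of 4 mast cell, basophil and eosinophil markers was. Of 5 neutrophil markers, 5 were above it in M1 and 4 in each other group. Of 4 stromal markers, 2 were above it in M1 and 3 in each other group. Of 2 B cell markers, 1 was above it in each group but M2+10058F4, where 0 were. The summed level of 4 dendritic cell markers was 21.02 to 23.10 on M1 arrays, against 17.29 to 18.79 on the arrays of the other groups. Of these 4 markers, 4 were above the filter's level in M1 and 2 in each other group. The summed level of 4 T and NK cell markers was also apart, at 17.44 to 17.85 on M1 arrays against 15.81 to 16.53 on the others. That of 2 erythroid markers was apart too, at 9.52 to 9.76 against 8.11 to 9.15. Only 2 of these T and NK cell markers and 1 erythroid marker were above the filter's level in M1, as in M2. The summed level of the 7 macrophage markers was likewise highest on M1 arrays, at 83.39 to 83.99. It was 82.20 to 82.88 in M0 and 78.54 to 79.42 in M2. The macrophage markers did not move together: Fcgr1 averaged 12.51 in M1 and 10.53 in M0, and Mertk 10.96 and 10.21. Adgre1 and Itgam were also higher by group mean in M1 than in M0. Cd68 averaged 11.68 in M1 and 13.09 in M0, and Csf1r 13.01 and 13.75, while Cd14 averaged 11.6 in both. The part of these markers in the results below was not tested.

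The letters of a core antioxidant response element, the site NRF2 is known to bind, were looked for near the starts of these genes and are shown where they occur. Promoter windows from 250 bases before to 50 after a start were taken from RefSeq (GRCm38.p6) for 7 of the 9 measured genes, in 9 windows. They were searched on both strands for TGACNNNGC and TGATNNNGC, forms of the element's core that differ in 1 letter, so that no stretch matches both on 1 strand. A match was found for Nfe2l2, Gclm, Txnrd1 and Srxn1, each time of TGACNNNGC. Capitals mark the match, each sequence runs 5′ to 3′ on the gene's strand, and in all but Nfe2l2 the element lies on the opposite strand, so that its reverse complement is read.
Nfe2l2, chr2:75704870-75704913, minus strand: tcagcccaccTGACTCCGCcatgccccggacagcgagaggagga
Gclm, chr3:122245398-122245456, plus strand: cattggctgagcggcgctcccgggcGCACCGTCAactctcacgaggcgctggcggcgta
Txnrd1, chr10:82859089-82859147, plus strand: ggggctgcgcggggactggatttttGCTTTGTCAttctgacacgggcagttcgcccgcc
Srxn1, chr2:152105542-152105570, plus strand: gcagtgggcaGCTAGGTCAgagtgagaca
The first capital lies 240 bases before the start of Nfe2l2, 134 before that of Gclm, 92 before 1 of 3 starts of Txnrd1, and 28 after that of Srxn1. Of all 32851 windows in the table, 12.4% hold TGACNNNGC, 8.09% hold TGATNNNGC and 19.6% hold either. The windows of Keap1, Nqo1 and Txn1 held neither set of letters. A match is a run of letters and no evidence of binding, and elements outside the windows were not searched. Gclc and Gsr had no window in the table.

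M1 cells had more mRNA than M0 cells of most of these genes, led by Gsr and Keap1, and less of Nfe2l2 itself. Against M0, 6 of the 9 genes were higher in M1 (Keap1, Gclm, Gsr, Txnrd1, Txn1 and Srxn1), where 33.6% of all genes tested were called higher, and 3 were lower (Nfe2l2, Nqo1 and Gclc), where 39.1% were called lower. The median log2 difference of the 9 genes was 0.78, against -0.005 over all genes. In M2 cells none of the 9 genes was higher than in M0 (12.7% of all genes were) and 6 were lower (18.4% of all genes were), with a median of -0.36 against -0.004 over all genes. M1 against M2 gave 6 higher, where 28.1% of all genes were, and 2 lower, where 36.5% were, with a median of 1.13 against -0.005. Groups did not overlap for 7 of the 9 genes in M1 against M0 (71.3% of all genes), for 7 in M2 against M0 (47.2% of all genes) and for 7 in M1 against M2 (64.9% of all genes). These 3 comparisons share groups and are not independent. When quantile normalization was repeated, the split of all genes turned in each of them. It became 5185 higher and 4488 lower in place of 4601 and 5362 in M1 against M0, 2093 and 1974 in place of 1735 and 2518 in M2 against M0, and 4631 and 4469 in place of 3855 and 5005 in M1 against M2. In these bulk samples, fewer cells of a type and less RNA per cell cannot be told apart.

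**Figure D1:**
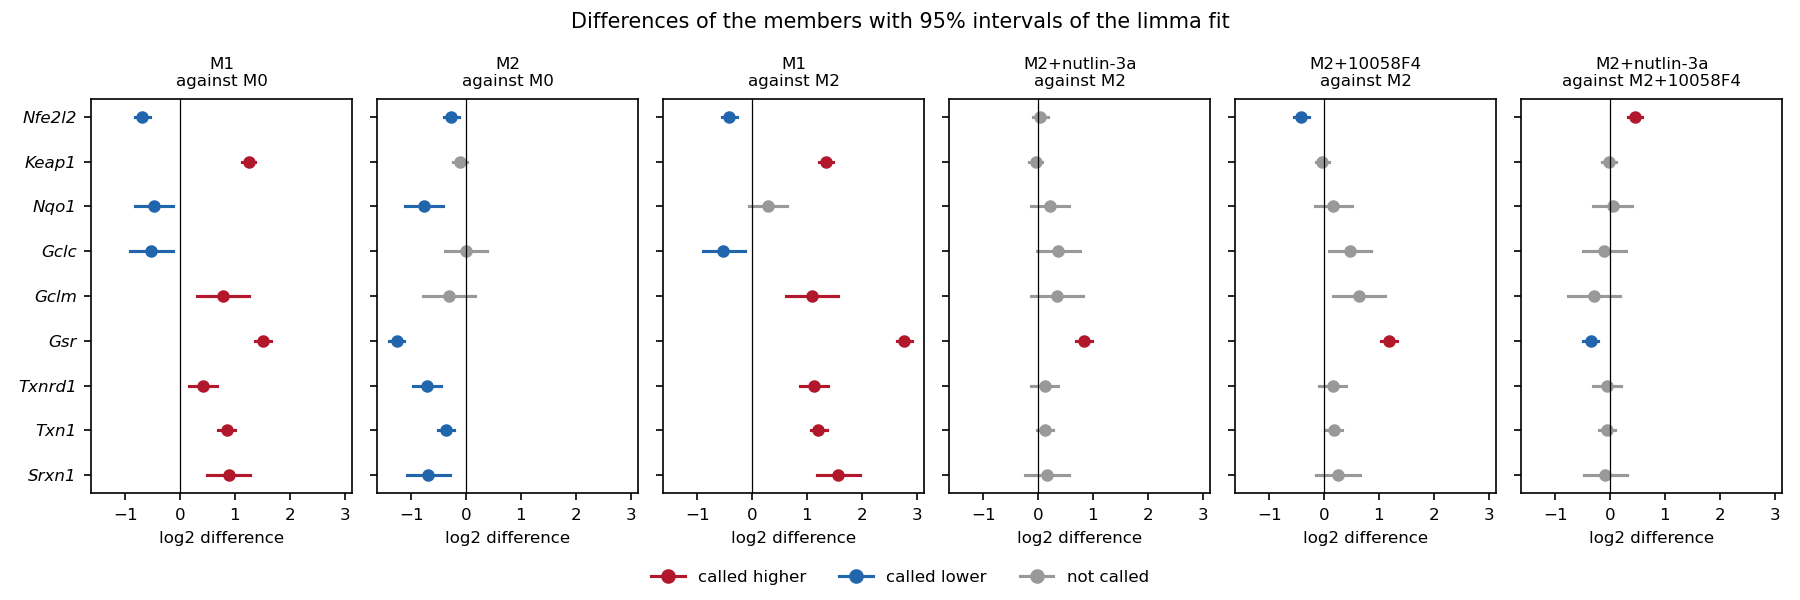
Log2 differences of the 9 measured genes (points) with 95% intervals of the limma fit (lines) in 6 comparisons; red is called higher, blue called lower and grey not called. Gsr is called in every panel, from 2.78 in M1 against M2 to -1.26 in M2 against M0, and is the only gene called higher with either agent against M2.

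Nfe2l2, the NRF2 gene, was lower in both polarized states than in untreated cells. Its level on the 3 arrays was 10.73, 10.90 and 10.80 in M1 and 11.20, 11.29 and 11.20 in M2, against 11.52, 11.53 and 11.45 in M0. The 3 groups did not overlap, with M1 lowest. The log2 difference was -0.69 in M1 against M0 (SE 0.06, adjusted p = 2.1e-07), -0.27 in M2 against M0 (SE 0.06, adjusted p = 0.0048) and -0.42 in M1 against M2 (SE 0.06, adjusted p = 3.7e-05). A second Nfe2l2 probe set gave -1.0 in M1 against M0, -1.05 in M2 against M0 and 0.05 in M1 against M2 (adjusted p = 0.74). The fall against M0 was thus called by both probe sets, and the order of M1 and M2 only by the one used.

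Keap1, which encodes the protein that marks NRF2 for degradation, was raised in M1 cells. Its level was 9.56, 9.53 and 9.61 in M1 and 8.25, 8.15 and 8.23 in M2, against 8.33, 8.31 and 8.30 in M0. Every M1 array lay above all others by more than 1 log2 unit. The difference was 1.25 in M1 against M0 (SE 0.06, 2.38-fold, adjusted p = 1.2e-10) and 1.35 in M1 against M2 (SE 0.06, adjusted p = 4.8e-11). M2 against M0 gave -0.10 (95% interval -0.23 to 0.02, adjusted p = 0.19), which did not pass. The second Keap1 probe set gave 1.54 in M1 against M0 (SE 0.08).

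Nqo1 encodes a quinone reductase that is widely used as a readout of NRF2 activity. It was at 5.52, 6.28 and 5.82 in M1 and at 5.35, 5.79 and 5.61 in M2, against 6.19, 6.53 and 6.32 in M0. All M2 arrays were below all M0 arrays, while M1 replicate 2 fell inside the M0 range. Nqo1 had a difference of -0.77 in M2 against M0 (SE 0.16, adjusted p = 0.0024) and of -0.47 in M1 against M0 (SE 0.16, adjusted p = 0.016). The second value was not called without M1 replicate 1 (-0.30, adjusted p = 0.093) or without M0 replicate 2 (-0.38, adjusted p = 0.072). M1 against M2 gave 0.29 (95% interval -0.06 to 0.64, adjusted p = 0.13), but 0.47 and a call without M1 replicate 1 (adjusted p = 0.017), 0.09 without M1 replicate 2 and 0.18 without M2 replicate 1 (neither called).

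Among the glutathione genes, the 2 subunit genes of glutamate-cysteine ligase, the rate-limiting enzyme of glutathione synthesis, moved in opposite directions in M1 cells on the probe sets used. Gclm, the modifier subunit, was at 11.13, 11.94 and 10.97 in M1 and at 10.44, 10.18 and 10.15 in M2, against 10.85, 10.55 and 10.29 in M0. All M1 arrays lay above all M0 arrays, while M2 and M0 overlapped. Gclm was higher by 0.78 in M1 against M0 (SE 0.22, adjusted p = 0.0055) and by 1.09 in M1 against M2 (SE 0.22, adjusted p = 0.00053), and M2 against M0 gave -0.31 (adjusted p = 0.32). Its other probe set went a different way: it gave -0.01 in M1 against M0 (adjusted p = 0.97) and was called lower in M2 against M0, at -0.89 (SE 0.19, adjusted p = 0.0031).

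Gclc, the catalytic subunit of the same enzyme, was at 8.11, 8.85 and 7.80 in M1 and at 8.62, 8.88 and 8.82 in M2, against 8.69, 8.88 and 8.74 in M0. M1 replicates 1 and 3 were below every array of the other groups, and M1 replicate 2 was within their range. The difference was -0.52 in M1 against M0 (SE 0.18, adjusted p = 0.019) and -0.52 in M1 against M2 (SE 0.18, adjusted p = 0.022). Without M1 replicate 3 it was -0.29 in both comparisons and not called (adjusted p = 0.11 against M0 and 0.12 against M2). Left out one at a time, M1 replicate 1 (adjusted p = 0.067 and 0.075), M0 replicate 2 (adjusted p = 0.062 against M0), M2 replicate 2 (adjusted p = 0.07 against M2) and M2 replicate 3 (adjusted p = 0.058 against M2) also ended the call. M2 against M0 gave 0.00 (95% interval -0.39 to 0.39), and a second Gclc probe set gave -0.54 in M1 against M0 (SE 0.14, adjusted p = 0.0037).

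Gsr, glutathione reductase, which returns oxidized glutathione to its reduced form with NADPH, separated M1, M0 and M2 with no overlap. Its level was 10.61, 10.54 and 10.60 in M1 and 7.72, 7.88 and 7.82 in M2, against 9.01, 9.0 and 9.18 in M0. M1 was 6.86-fold above M2 (log2 difference 2.78, SE 0.07, adjusted p = 1.6e-13), the largest difference of the 9 genes in the 6 comparisons. Against M0 it was higher in M1 by 1.52 (SE 0.07, adjusted p = 7.3e-11) and had a difference of -1.26 in M2 (SE 0.07, adjusted p = 8.1e-09). A second Gsr probe set gave 1.53 and -1.21 in the same comparisons.

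The 3 measured genes of the thioredoxin system were all higher in M1 than in M0 and all lower in M2 than in M0 on the probe sets used. Txnrd1, the cytosolic thioredoxin reductase, was at 10.66, 11.12 and 10.63 in M1 and at 9.55, 9.72 and 9.76 in M2, against 10.30, 10.42 and 10.44 in M0. Txn1, thioredoxin itself, was at 13.37, 13.21 and 13.35 in M1 and at 12.03, 12.18 and 12.09 in M2, against 12.36, 12.52 and 12.51 in M0. Srxn1, sulfiredoxin, which repairs overoxidized peroxiredoxins, was at 9.77, 10.58 and 9.88 in M1 and at 8.33, 8.50 and 8.69 in M2, against 9.10, 9.18 and 9.31 in M0. For each of these genes every M1 array was above every M0 array, and every M2 array was below. In M1 against M0 the differences were 0.42 for Txnrd1 (SE 0.12, adjusted p = 0.0051), 0.85 for Txn1 (SE 0.07, adjusted p = 5.5e-08) and 0.89 for Srxn1 (SE 0.18, adjusted p = 0.00062).

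The further probe sets of the thioredoxin genes did not all pass. In M1 against M0, 1 of the 2 further Txnrd1 probe sets missed the threshold (0.32, SE 0.15, adjusted p = 0.067). M2 against M0 gave -0.71 for Txnrd1 (SE 0.12, adjusted p = 0.00035), -0.36 for Txn1 (SE 0.07, adjusted p = 0.0011) and -0.69 for Srxn1 (SE 0.18, adjusted p = 0.011). Both further Txnrd1 probe sets (-0.26 and 0.00), the further Txn1 probe set (-0.09) and 1 of 3 further Srxn1 probe sets (-0.13) did not pass the test in this comparison. Without M2 replicate 1 the Srxn1 difference was -0.60 and missed the threshold at an adjusted p of 0.05. M1 against M2 was called for every probe set of the 3 genes, and on the probe sets used it was 1.13 for Txnrd1, 1.21 for Txn1 and 1.57 for Srxn1 (2.98-fold, adjusted p = 2.9e-06).

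**Figure D2:**
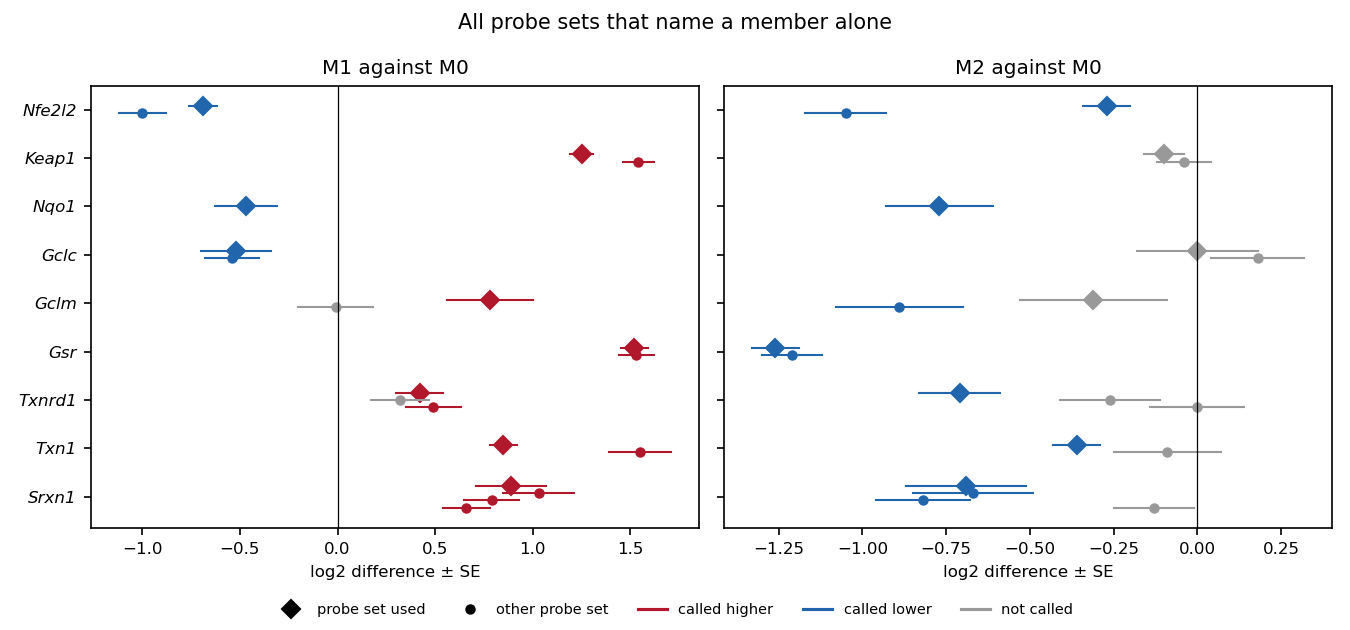
Log2 differences ± SE of every probe set that names 1 of the genes alone, in M1 against M0 (left) and M2 against M0 (right); diamonds are the probe sets used, circles the others, red called higher, blue called lower, grey not called. Gclm shows the widest disagreement in M1 against M0, 0.78 on the probe set used against -0.01 on the other, and no gene has probe sets called in opposite directions.

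M1 replicate 2 was the array on which several of the NRF2 target genes were highest. Its level exceeded the mean of M1 replicates 1 and 3 by 0.89 for Gclc, 0.89 for Gclm, 0.76 for Srxn1, 0.61 for Nqo1 and 0.47 for Txnrd1. Keap1, Gsr and Txn1 were not raised on it, at -0.05, -0.07 and -0.15, and Nfe2l2 was at 0.14. It was the highest M1 array for 6 of the 9 genes, as for 42.6% of all genes tested. It was above the mean of the other M1 arrays by more than 0.5 for 4 of them, as for 5.52% of all genes. The 9 genes thus split into some that stood apart on this array and some that were even across M1.

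With M1 replicate 2 left out, the same 6 genes were higher and the same 3 lower in M1 than in M0. The median difference was then 0.48 in place of 0.78. Gclm was higher by 0.48 (adjusted p = 0.022) and Txnrd1 by 0.26 (adjusted p = 0.017). Gclc was at -0.82 (adjusted p = 4.6e-06) against M0 and at -0.81 against M2, and Nqo1 was at -0.68 against M0 (adjusted p = 0.00055). RNA integrity can be read from beta-actin, as the signal of its 3' control probe sets minus that of its 5' ones, and this value averaged 0.178 in M1 and 0.382 to 0.489 in the M2 cells with and without an agent, against 0.351 in M0. The same value for Gapdh went the other way in M1, at -0.162 in M1 and -0.283 to -0.272 in the M2 cells with and without an agent, against -0.273 in M0. Neither control's part in the M1 differences was tested.

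**Figure D3:**
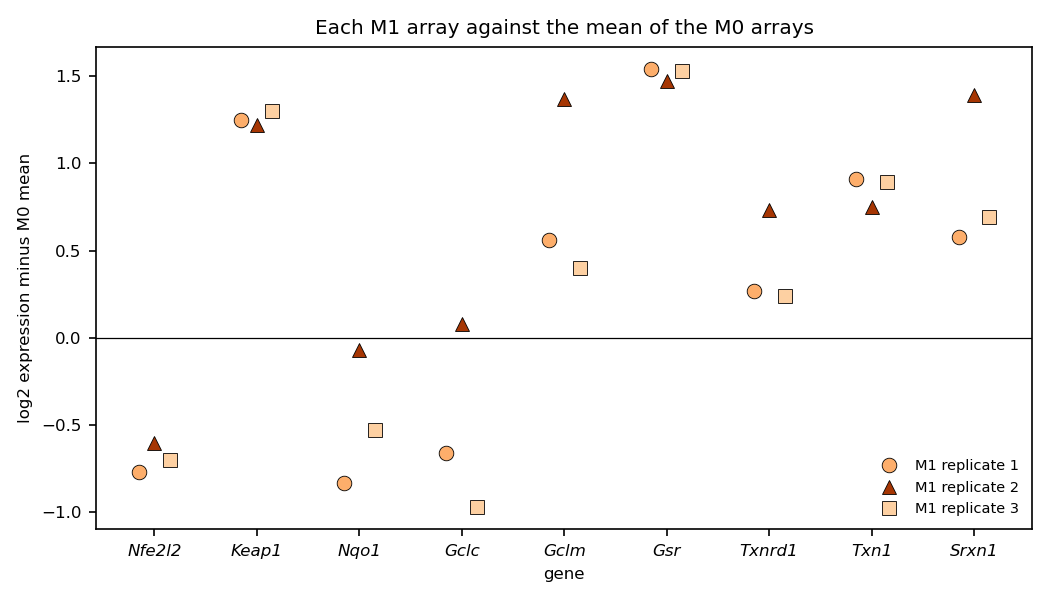
Log2 expression on each M1 array minus the mean of the 3 M0 arrays, for the 9 measured genes; circles, triangles and squares are M1 replicates 1, 2 and 3. Replicate 2 lies above the others by 0.89 for Gclc and for Gclm, and the 3 arrays lie close together for Keap1, Gsr and Nfe2l2.

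In M2 cells given nutlin-3a, Gsr was higher than in M2 cells and no other gene of the set passed the test. Against M2, 1 of the 9 genes was called higher, where 9.56% of all genes were, and 0 were called lower, where 5.85% were (limma; 3975 of the 13703 genes had an unadjusted p under 0.05). The median difference was 0.17, against 0.009 over all genes, and 4 of the 9 genes had no overlap between nutlin-3a and M2 arrays, as had 38.9% of all genes. Gsr was at 8.71, 8.64 and 8.58 with nutlin-3a, against 7.72, 7.88 and 7.82 in M2. No arrays overlapped, and the difference was 0.84 (SE 0.07, 1.79-fold, adjusted p = 2.1e-06). The split of all genes, 1310 higher and 802 lower, became 1104 and 1037 with quantile normalization repeated and 1589 and 577 with arrays centred on their medians, and Gsr was called higher under both.

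Of the remaining genes, Gclc was at 9.13, 9.12 and 9.18 with nutlin-3a, against 8.62, 8.88 and 8.82 in M2. The groups did not overlap, but the difference of 0.37 did not pass (95% interval -0.02 to 0.76, adjusted p = 0.19). The M1 arrays feed into the shared spread: without M1 replicate 2 the Gclc difference was the same and passed (adjusted p = 0.0081), as it did when the 6 arrays of the comparison were fitted alone (adjusted p = 0.016). For the other 7 genes the difference ran from -0.04 for Keap1 to 0.35 for Gclm, with adjusted p of 0.25 or above. Their 95% intervals reached at most 0.82, for Gclm.

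With 10058F4, Gsr was again higher than in M2, and Nfe2l2 was lower. Against M2, 1 gene was called higher, where 10.6% of all genes were, and 1 lower, where 10.2% were, with a median difference of 0.18 against 0 over all genes. No overlap between 10058F4 and M2 arrays was seen for 6 of the 9 genes, as for 44.2% of all genes. Both agents are compared with the same 3 M2 arrays. Gsr was at 8.97, 8.99 and 9.01 with 10058F4, against 7.72, 7.88 and 7.82 in M2, a difference of 1.19 (SE 0.07, 2.28-fold, adjusted p = 4.1e-08). Nfe2l2 was at 10.81, 10.85 and 10.79 with 10058F4, against 11.20, 11.29 and 11.20 in M2, and its difference was -0.41 (SE 0.06, adjusted p = 0.00034). Neither gene's groups overlapped. The second Nfe2l2 probe set gave -0.27 and did not pass (adjusted p = 0.15). Between 10058F4 and M0 cells the Gsr difference was -0.07 (95% interval -0.22 to 0.07, adjusted p = 0.42).

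Both subunits of glutamate-cysteine ligase lay above M2 on all 3 arrays with 10058F4 but just missed the threshold. Gclm was at 11.18, 10.82 and 10.68 with 10058F4, against 10.44, 10.18 and 10.15 in M2, a difference of 0.64 (95% interval 0.17 to 1.11, adjusted p = 0.055). With the replicate number as a block, which pairs the arrays, the adjusted p was 0.027. Gclc was at 9.25, 9.27 and 9.22 with 10058F4, against 8.62, 8.88 and 8.82 in M2, a difference of 0.47 (95% interval 0.09 to 0.86, adjusted p = 0.08). The second Gclm probe set passed at 0.74 (adjusted p = 0.015) and the second Gclc probe set at 0.43 (adjusted p = 0.049). Without M1 replicate 2, 4 of the 9 genes were called higher with 10058F4: Gsr, Gclc (adjusted p = 0.0011), Gclm (adjusted p = 0.008) and Txn1 (0.18, adjusted p = 0.043). Without M1 replicate 3, Gsr, Gclc (adjusted p = 0.027) and Gclm (adjusted p = 0.039) were. Over all genes, the 1456 called higher became 1871 without M1 replicate 2 and ranged down to 1040 with another array left out.

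Keap1, Nqo1 and the thioredoxin genes were not called with either agent. Keap1 was at 8.18, 8.21 and 8.10 with nutlin-3a and at 8.21, 8.22 and 8.11 with 10058F4, against 8.25, 8.15 and 8.23 in M2. The 3 groups overlapped, although the second Keap1 probe set was called lower with nutlin-3a (-0.28, SE 0.08, adjusted p = 0.044). Nqo1 was at 5.67, 5.92 and 5.82 with nutlin-3a and at 5.68, 5.87 and 5.72 with 10058F4, against 5.35, 5.79 and 5.61 in M2. Its replicate 2 was the highest array of all 3 groups, and its groups overlapped.

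Of the thioredoxin genes, Txn1 was at 12.20, 12.22 and 12.24 with nutlin-3a and at 12.21, 12.32 and 12.30 with 10058F4, against 12.03, 12.18 and 12.09 in M2. Its arrays with either agent lay above all M2 arrays, but by little (0.12 with nutlin-3a, adjusted p = 0.25, and 0.18 with 10058F4, adjusted p = 0.08). Txnrd1 was at 9.67, 9.78 and 9.93 with nutlin-3a and at 9.77, 9.95 and 9.80 with 10058F4, against 9.55, 9.72 and 9.76 in M2. Srxn1 was at 8.42, 8.69 and 8.92 with nutlin-3a and at 8.56, 8.83 and 8.89 with 10058F4, against 8.33, 8.50 and 8.69 in M2. Srxn1 overlapped M2 with both agents, and Txnrd1 with nutlin-3a. Their differences from M2 were between 0.12 and 0.25 on the probe sets used, with adjusted p of 0.37 or above. Both further Txnrd1 probe sets went the other way, at -0.24 and -0.16 with nutlin-3a and at -0.31 and -0.27 with 10058F4, and were not called.

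Set against each other, the agents differed in Nfe2l2 and in Gsr. Nutlin-3a cells had more Nfe2l2 mRNA than 10058F4 cells (0.45, SE 0.06, adjusted p = 0.00039) and less Gsr mRNA (-0.35, SE 0.07, adjusted p = 0.0044). This was 1 gene higher, where 4.24% of all genes were, and 1 lower, where 2.72% were. The median difference was -0.06, against 0.011 over all genes, and groups did not overlap for 3 of the 9 genes, as for 32% of all genes. The split of all genes, 581 higher and 373 lower, became 486 and 471 with quantile normalization repeated, with both calls kept. The second Gsr probe set gave -0.30 and just missed the threshold (adjusted p = 0.053). For the other 7 genes the difference was between -0.29 for Gclm and 0.05 for Nqo1, with adjusted p of 0.54 or above, and the widest interval was that of Gclm, from -0.76 to 0.18.

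**Figure D4:**
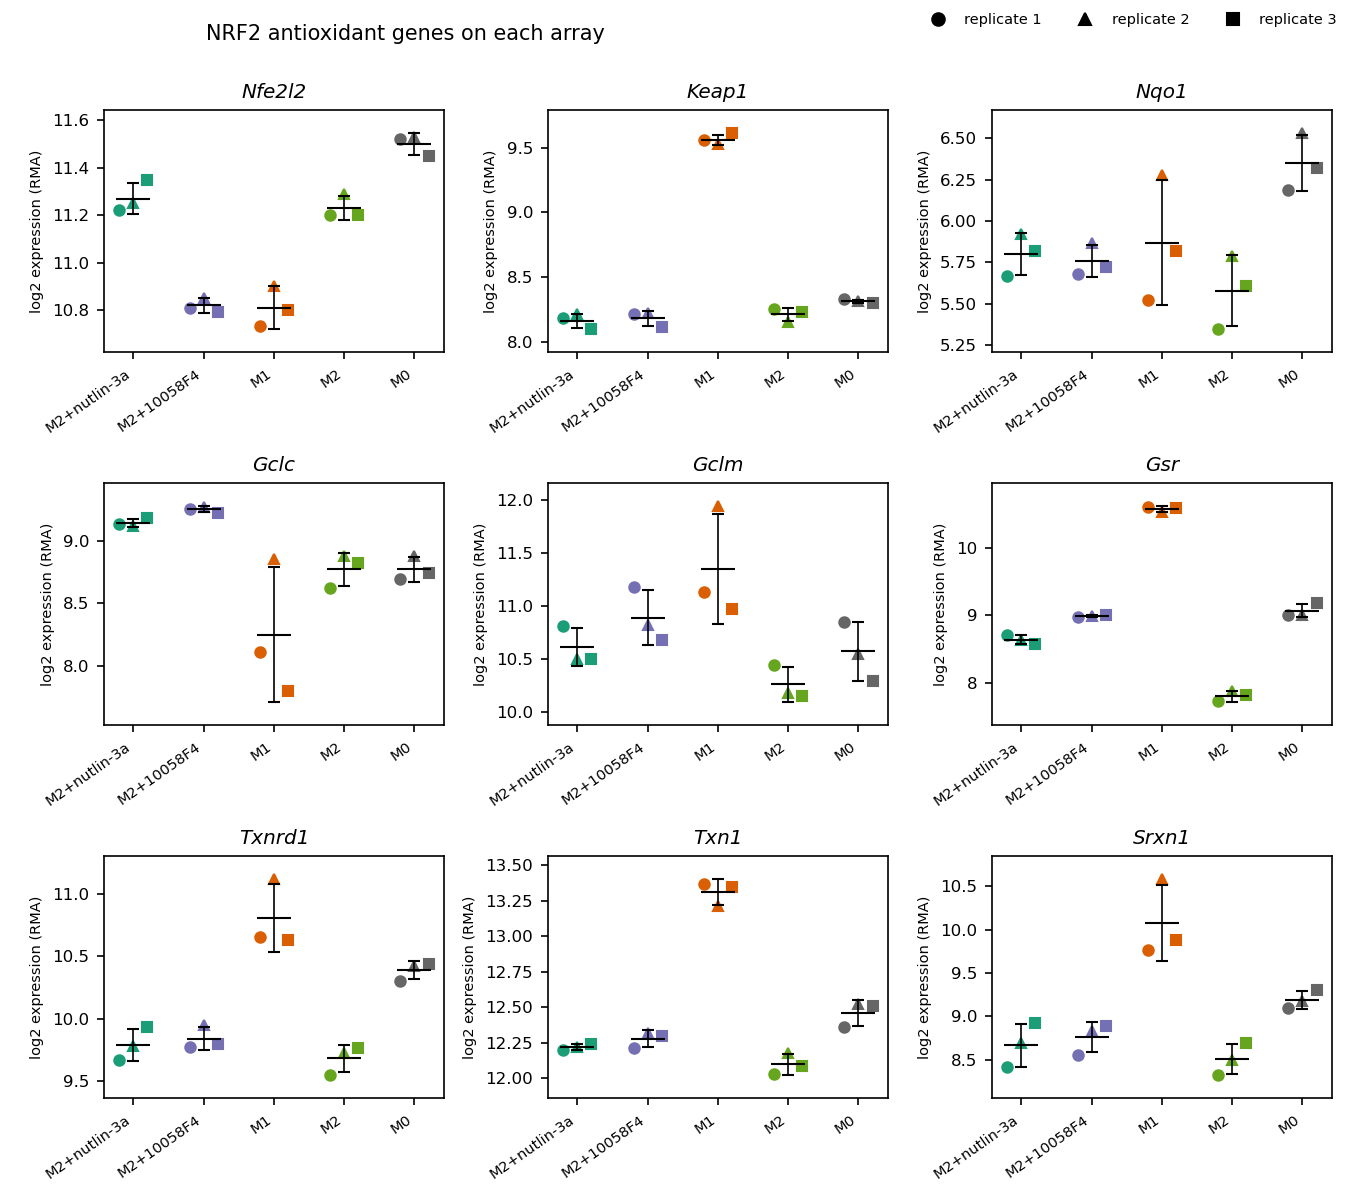
Log2 expression (RMA) of each gene on each of the 15 arrays, by group from M2+nutlin-3a to M0; symbols are replicates, horizontal lines group means and bars SDs over 3 arrays, and each panel has its own axis. On the probe set used, Gsr falls into 4 levels, M1 at 10.58, M0 and M2+10058F4 at 9.07 and 8.99, M2+nutlin-3a at 8.64 and M2 at 7.80.

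Ordered by group mean, M1 was highest for Keap1, Gclm, Gsr, Txnrd1, Txn1 and Srxn1, M0 for Nfe2l2 and Nqo1, and M2+10058F4 for Gclc. M2 was lowest for Nqo1, Gclm, Gsr, Txnrd1, Txn1 and Srxn1. Neighbours in this order often did not differ beyond their spread: for Gclm none of the 4 neighbouring pairs was called, for Nqo1 only M1 against M0 was. For Gsr the neighbours M2+10058F4 and M0 were not called apart and the other 3 pairs were, on the probe set used. The second Gsr probe set did not call M2+10058F4 and M2+nutlin-3a apart (adjusted p = 0.053). Txnrd1 was lower with either agent than in M0, at -0.59 with nutlin-3a (adjusted p = 0.0013) and -0.55 with 10058F4 (adjusted p = 0.0023). The Nfe2l2 level with 10058F4, 10.82 ± 0.0314, was next to that of M1, 10.81 ± 0.089, with a difference of 0.01 (95% interval -0.12 to 0.15).

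Across the 15 arrays, which fall into 5 groups, some pairs of the genes had nearly the same profile. Pearson's r was 0.97 for Txnrd1 and Srxn1, 0.96 for Keap1 and Txn1 and 0.95 for Gsr and Txn1. Gclc stood apart from them, with r of -0.76 with Keap1 and of -0.14 with Gclm, its partner subunit. Nfe2l2 had r of -0.53 with Gsr and of 0.48 with Nqo1. These values describe group differences shared by the genes and carry no test.

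Among all genes tested, the profiles most like that of Gsr over the 15 arrays were those of Mir22hg (r = 0.984), Oser1 (r = 0.979) and Mafk (r = 0.978). Mafk encodes a small MAF protein and was at 8.51 ± 0.0937 in M1 and 7.65 ± 0.0435 in M2, against 7.98 ± 0.0682 in M0. For Txnrd1 they were Card19 (r = 0.978), Ninj1 (r = 0.977) and Pcnx (r = 0.976), and for Srxn1 they were Ninj1 (r = 0.973), Alg9 (r = 0.973) and Txnrd1 itself (r = 0.972). Nqo1 was most like Cdk5rap1 (r = 0.924), Ugdh (r = 0.922) and Atxn1l (r = 0.917). Ugdh encodes UDP-glucose dehydrogenase, which supplies glucuronic acid for conjugation, and was at 9.91 ± 0.154 in M1 and 9.63 ± 0.0876 in M2, against 10.13 ± 0.0927 in M0.

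The wider pathway was read from 57 further genes, of which 52 had a probe set and 51 were tested, in 6 roles. In M1 against M0, 18 of the 51 were higher and 23 lower, with a median of -0.18, and in M2 against M0 3 were higher and 19 lower, with a median of -0.23. M1 against M2 gave 19 higher and 19 lower, with a median of 0.10. The background shares given above apply to these counts, and 33 of the 51 genes were highest on M1 replicate 2 among the M1 arrays.

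Of 5 haem and iron genes, 2 were higher and 2 lower in M1 against M0, where 33.6% and 39.1% of all genes were. In M2 against M0, 0 were higher and 3 lower, where 12.7% and 18.4% of all genes were. Hmox1, haem oxygenase 1 and a much-studied NRF2 and BACH1 target, was at 12.11, 12.82 and 12.11 in M1 and at 8.76, 8.77 and 8.80 in M2, against 9.82, 10.14 and 10.22 in M0. Its groups did not overlap, and M1 was 11.9-fold above M2 (log2 difference 3.57, SE 0.17, adjusted p = 1.6e-10). Hmox1 differed from M0 by 2.28 in M1 and by -1.29 in M2. Blvrb, a biliverdin reductase, was higher in M1 than in M0 by 1.03 (SE 0.07). The other biliverdin reductase gene, Blvra, was lower (-0.92, SE 0.10), as was Fech, which encodes the last enzyme of haem synthesis (-0.85, SE 0.08). In the detoxification role 0 of 8 genes were higher and 5 lower in M1 against M0, where 33.6% and 39.1% of all genes were. Among the 5 were the epoxide hydrolase Ephx1 (-2.68, SE 0.18) and the catalase gene Cat (-1.44, SE 0.14). In M2 against M0, 5 of the same 8 were lower, where 18.4% of all genes were. Among them were Gsta3 (-1.12, SE 0.21), a glutathione S-transferase, and Akr1b8 (-1.08, SE 0.29), an aldo-keto reductase.

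Other roles were mixed. All 10 regulators were called in M1 against M0, 6 higher and 4 lower, where 72.7% of all genes tested were called in either direction. The largest differences were those of the small MAF gene Maff (1.63, SE 0.13) and of Sqstm1 (1.08, SE 0.13), whose protein p62 binds KEAP1. Of 16 glutathione genes 6 were higher and 6 lower in M1 against M0, where 33.6% and 39.1% of all genes were. Their differences ran from Glrx, glutaredoxin (2.63, SE 0.09), to the microsomal transferase Mgst3 (-2.79, SE 0.14). Glrx was also higher in M2 than in M0 (2.0, SE 0.09, adjusted p = 1.9e-09), unlike the 9 genes described above, none of which was. The other thioredoxin reductases did not follow Txnrd1 in M1 against M0: the mitochondrial Txnrd2 was at -0.90 (SE 0.08) and Txnrd3 at -1.54 (SE 0.15). Idh1, a cytosolic source of NADPH, was lower in both M1 (-2.47, SE 0.09) and M2 (-0.37, SE 0.09) than in M0.

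**Figure D5:**
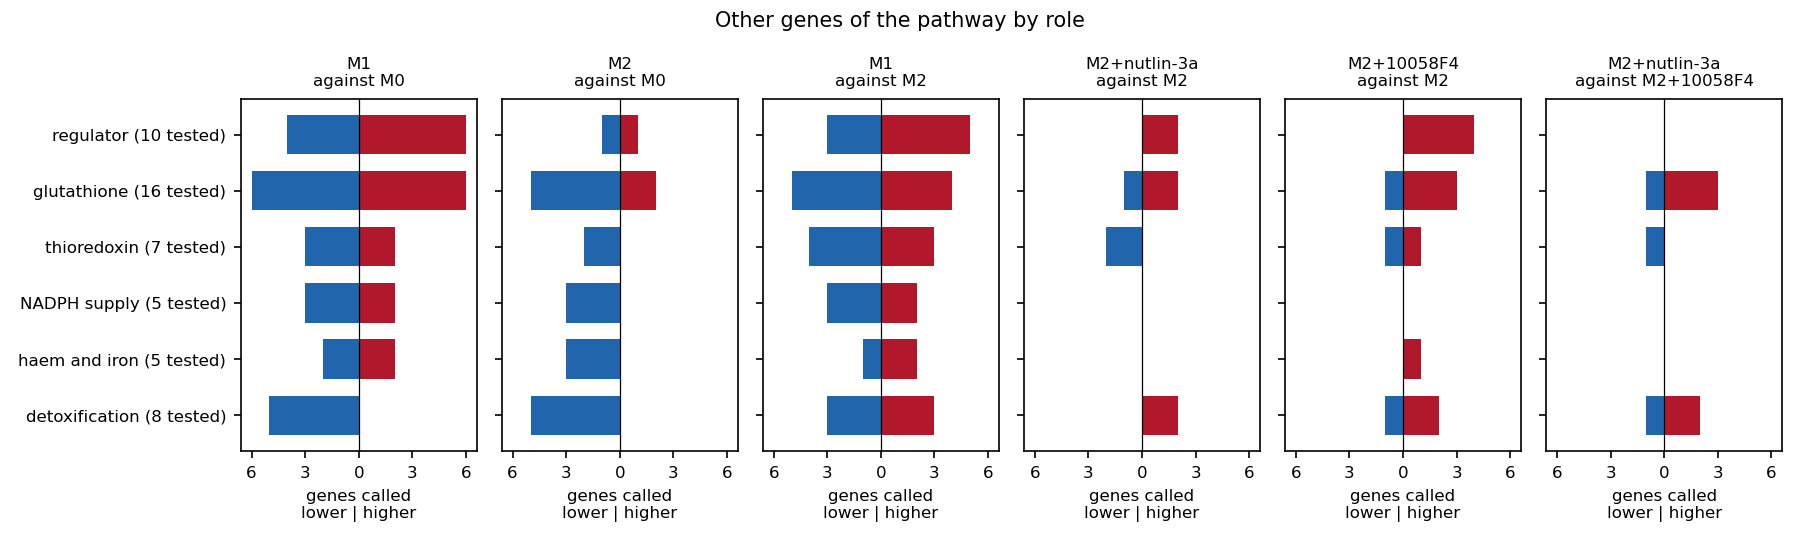
Number of further pathway genes called higher (red, to the right) and lower (blue, to the left) by limma in each of 6 comparisons, by role with the number tested. In M1 against M0 the detoxification role has 5 genes lower and 0 higher, where 39.1% and 33.6% of all genes were. In M2+10058F4 against M2 the regulators have 4 higher and 0 lower, where 10.6% and 10.2% of all genes were.

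With nutlin-3a 6 of the 51 genes were higher and 3 lower than in M2, where 9.56% and 5.85% of all genes were. With 10058F4 11 were higher and 3 lower than in M2, where 10.6% and 10.2% of all genes were. Chac1, which breaks down glutathione, was at 6.30, 6.56 and 6.09 with nutlin-3a, against 5.21, 4.96 and 5.56 in M2, a difference of 1.07 (SE 0.14, adjusted p = 0.00024). Ephx1 was higher with nutlin-3a by 0.98 (SE 0.18), and Txnip, the thioredoxin inhibitor, was at -0.40 (SE 0.07). Cbr3, a carbonyl reductase, was at 11.21, 11.07 and 11.17 with 10058F4, against 9.55, 9.41 and 9.67 in M2, a difference of 1.60 (SE 0.13, adjusted p = 9.4e-07), and with nutlin-3a the difference was 0.62. Slc7a11, the cystine transporter that feeds glutathione synthesis, was at 7.73, 6.74 and 7.52 with 10058F4, against 5.92, 5.81 and 5.96 in M2 (1.44, SE 0.22, adjusted p = 0.00031). Hmox1 was higher with 10058F4 by 0.80 (SE 0.17, adjusted p = 0.0038). The 3 genes lower with 10058F4 were Glrx, at -0.96 (SE 0.09), Osgin1 of the detoxification role, at -0.64 (SE 0.11), and Txn2 of the thioredoxin role, at -0.23 (SE 0.06).

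Nutlin-3a against 10058F4 gave 5 of the 51 genes higher and 3 lower, where 4.24% and 2.72% of all genes were. Ephx1 (1.08, SE 0.18) and Chac1 (0.63, SE 0.14) were among those higher. Cbr3 (-0.98, SE 0.13), Slc7a11 (-0.79, SE 0.22) and Txnip (-0.30, SE 0.07) were lower. Without M1 replicate 2 the counts moved to 16 higher with nutlin-3a against M2, 6 lower with 10058F4 against M2, and 5 lower for nutlin-3a against 10058F4. Among all 13703 genes, those called lower also rose, from 1402 to 1789 with 10058F4 against M2 and from 373 to 545 for nutlin-3a against 10058F4. Over all genes, the 1310 called higher with nutlin-3a against M2 became 1807 without M1 replicate 2, but 756 without nutlin-3a replicate 2 and 774 without M2 replicate 1. The 581 called higher for nutlin-3a against 10058F4 ranged from 339 without nutlin-3a replicate 2 to 890 without M1 replicate 2.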

How the data were processed

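Each probe set has a deposited log2 value. The submitters' processing notes name RMA, without a version, and the log base was read from the values. RMA includes a quantile normalization, which can hide a shift shared by most genes; the deposited probe set values still differ somewhat between arrays, with percentile 40 at 4.34 to 4.52. Of 45101 probe sets (64 controls), GEO's platform annotation names 1 gene for 34945, several for 932 and none for 9160; 34741 gene IDs matched RefSeq (GRCm38.p6), used for symbols. The filter asked for 3 or more arrays with a value over percentile 40 of that array. Contrasts of limma (lmFit, eBayes; 5 group means; degrees of freedom 10 residual, 3.86 prior) were adjusted by Benjamini-Hochberg over 13703 genes. Having 3 arrays per group limits the precision.

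The genes and lists were chosen with earlier results of these data known. Named were all 10 genes and the 3 most similar profiles of 4 genes. Further pathway genes were listed by a rule, up to 2 called per role and comparison with the largest difference. Any gene called alone in its role and direction was added to that list. The text names a part of the list, and it also gives Blvra and Fech in M1 against M0, which the list does not hold there. Same-numbered arrays' deviations correlated over genes, with r of 0.23 to 0.42 in the comparisons without M1 and of 0.06 to 0.26 with M1. The comparisons without M1 were counted as paired by this correlation alone. The main fit does not pair arrays. With the replicate number as a block, 1632 genes were called higher and 1611 lower with 10058F4 against M2, in place of 1456 and 1402. In simulated data for nutlin-3a against M2 (13703 genes, 50 changed per size), recovery was 28% for 1.25-fold changes, 76% for 1.5-fold, 96% for 2-fold and 100% for 4-fold, and 13 of 163 calls were false. The deposited data gave 2112 calls in this comparison. The adjustment depends on how many genes change, so these rates need not hold there. R 4.3.3, limma 3.58.1, Python 3.11.15, pandas 2.3.3 and matplotlib 3.10.9 were used.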

Additional observations from a re-analysis of the deposited data

How the results depend on the processing

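Of 1290 values of single genes over all alternatives, 1257 stayed on their side of the threshold, 16 passed it newly and 17 no longer passed it. No value called in the main fit or in the alternative changed direction, while some values called in neither did. The Txnrd1 difference with 10058F4 against M2, 0.16, was as low as -0.14. Unless a value below shows it, the cause was not tested. In M1 against M0 the 3 genes called lower became 1 with quantile normalization repeated, with 6 arrays alone, without M0 replicate 2 and without M1 replicate 1 (1 to 3 with 1 array left out), and the median of 0.78 became 0.41 with the mean of all probe sets and ran from 0.48 to 0.83 with 1 array left out. That mean also took Gclm to 0.39 (adjusted p = 0.1) in M1 against M0, gave -0.58 for the median in M2 against M0, and brought Nfe2l2 to -0.18 in M1 against M2 and -0.66 in M2 against M0, Txnrd1 to 0.73 and -0.32, and Txn1 to -0.22 (adjusted p = 0.11) and Gclm to -0.60 (adjusted p = 0.037) in M2 against M0. In M1 against M2 the 2 genes called lower became 1 with 6 arrays alone (1 to 2 with 1 array left out), and the median ran from 0.97 to 1.22 with 1 array left out. With 10058F4 against M2 the 1 gene called higher became 2 with the stricter filter, the mean of all probe sets, trended and robust eBayes and the replicate block, and 3 with 6 arrays alone (1 to 4 with 1 array left out); with nutlin-3a it became 2 with 6 arrays alone (1 to 2 with 1 array left out). The replicate block changed 1 further call, Nqo1 in M1 against M2 (0.29, adjusted p = 0.013), and no other. Arrays of that comparison were not counted as paired, by their correlation alone (r of 0.06 to 0.15). Nqo1 was also called there without M1 replicate 1 (0.47, adjusted p = 0.017). Leaving out M1 replicate 2, added after seeing the data, took the further pathway genes from 6 to 16 higher with nutlin-3a against M2, from 3 to 6 lower with 10058F4 against M2 and from 3 to 5 lower for nutlin-3a against 10058F4. Over all genes the same counts went from 1310 to 1807, from 1402 to 1789 and from 373 to 545. Txnrd1 has no value when probe sets with a suffix for shared sequence are left out. Nqo1, at 5.35 to 6.53, lies closest to the filter's level of 4.34 to 4.52.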
